A study of Homo sapiens with 6 samples.

Results

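The plasminogen activators, the activator receptor and serpins grouped with them were followed as 7 genes, PLAU, PLAUR, PLAT, SERPINE2, SERPINB2, SERPINB8 and SERPINI1. They were taken by gene symbol from the 59050 entries of the expression table, and each symbol stood on a single entry. Expression was measured by bulk RNA-seq in human foreskin fibroblasts (HFF) at about passage 18, all of which carried ER:RAS, an inducible fusion of oncogenic H-RAS, delivered by virus packaged in HEK293T cells and selected with 200 µg/ml neomycin. The 4-OHT group received 100 nM 4-hydroxytamoxifen, which switches the fusion on, and was collected as senescent cells after 1 week. The DMSO group is labelled with the vehicle only. Each group has 3 libraries. Both groups carry the transgene and no library of cells without it was analysed here, so the activated oncogene and the drug itself cannot be told apart.

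Urokinase and tissue-type plasminogen activator, encoded by PLAU and PLAT, cut the circulating zymogen plasminogen into plasmin, a broad serine protease that dissolves fibrin, degrades matrix proteins and activates other proteases. Urokinase acts largely at the cell surface, where it is held by the receptor that PLAUR encodes, while tissue-type activator is most active when bound to fibrin. Serpins restrain the system: they offer the protease a loop as bait and trap it in a covalent complex. Fibroblasts are a known source of urokinase, and urokinase and its inhibitors are often counted among the proteins that senescent cells release.

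Levels are TPM, the relative number of transcripts of a gene, a unit scaled for transcript length and library total, so levels may be compared between genes. Each library summed to between 998367 and 998843 TPM, and read depth is unknown. Differences are log2 fold changes, 4-OHT minus DMSO, of TPM + 1, tested with limma, 2-sided, with Benjamini-Hochberg adjustment over the 15272 genes that averaged 1 TPM or more. A gene is said to have risen or fallen where the adjusted p was under 0.05. The labels do not state whether replicates were separate cultures, and the p-values therefore cover just the spread among these libraries, which may be technical.

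All 7 genes were tested. In the 4-OHT libraries 6 rose (PLAU, PLAUR, PLAT, SERPINB2, SERPINB8 and SERPINI1) and 1 fell (SERPINE2), with a median log2 fold change of 0.82 against -0.09 for all genes tested. Among all genes tested 49.6% were called, with 19.8% that rose and 29.9% that fell. The members were chosen with earlier results of these data known, so the contrast with all genes is a description and not a test. As deposited, 60.2% of all called genes were lower in 4-OHT, against 47.0% under median-of-ratios scaling, which shifted log2 fold changes upward by a median of 0.11. Every member had its 3 4-OHT libraries entirely on one side of its 3 DMSO libraries, which also held for 59.0% of all genes tested. The changes differed widely in size: SERPINB2 had the 14th highest log2 fold change of all genes tested, PLAU the 101st and PLAT the 325th, while PLAUR stood at 2695th.

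**Figure D1:**
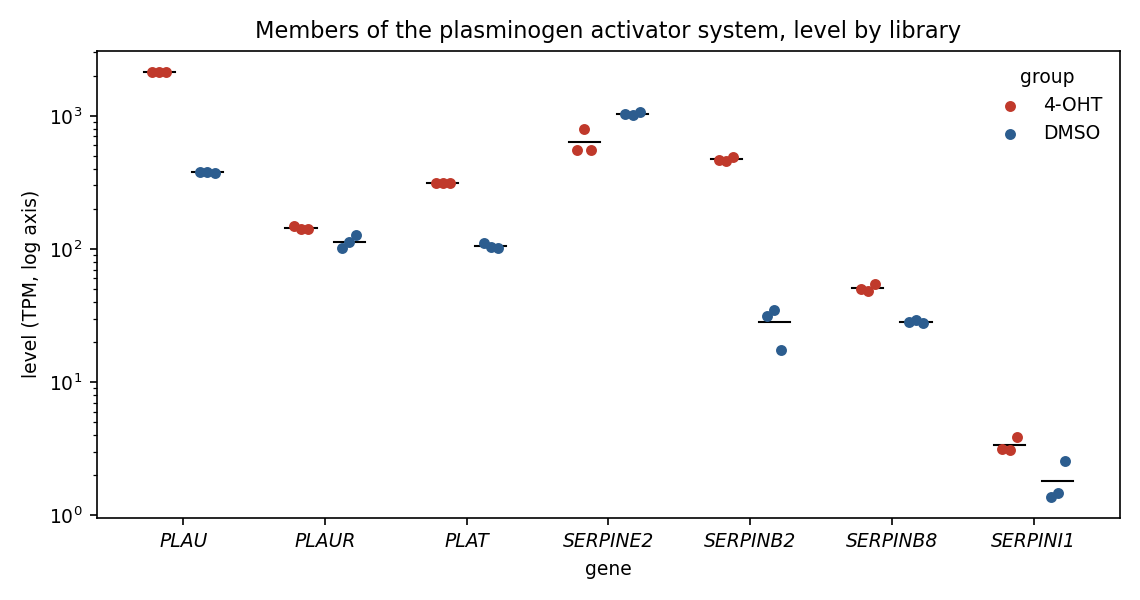
Level of each gene in each library, in TPM on a log axis, with 4-OHT libraries in red and DMSO libraries in blue. Points are libraries (3 per group) and black lines are group means. PLAU (2123 against 377 TPM), PLAT (312 against 105) and SERPINB2 (470.2 against 28.0) show the widest gaps with 4-OHT on top, and SERPINE2 (636 against 1039) is the one gene with 4-OHT below.

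The start regions of 3 members that rose are shown because they share a sequence that can be looked up directly. RefSeq windows (build GRCh38.p14) were matched by symbol for 6 of the 7 genes, with 8 windows in all. No window was used for PLAT. The 250 bases before each start were searched on both strands for TGANTCA, the core recognised by AP-1, a transcription factor class downstream of RAS signalling, and for TATAAA, the TATA box core. Since TGANTCA reads the same on both strands, a match counts once. TGANTCA was held by 3 of the 8 windows, those of SERPINB2, SERPINB8 and PLAUR, against 6.57% of 35116 windows of the same length. These 3 are shown because they hold it, and enrichment among the members was not tested. The windows found for PLAU, SERPINE2 and SERPINI1 did not hold TGANTCA, and sequence further from the start was not searched. The regions are chr18:63887455-63887704 (plus strand) for SERPINB2, chr18:63969831-63970080 (plus strand) for SERPINB8 and chr19:43670170-43670419 (minus strand) for PLAUR. They are given 5′ to 3′ up to the base before the start, and capitals mark both motifs.
SERPINB2: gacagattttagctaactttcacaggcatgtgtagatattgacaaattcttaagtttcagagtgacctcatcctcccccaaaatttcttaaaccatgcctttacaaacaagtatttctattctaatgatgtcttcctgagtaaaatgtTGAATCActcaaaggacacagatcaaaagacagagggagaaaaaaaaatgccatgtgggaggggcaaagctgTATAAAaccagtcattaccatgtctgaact
SERPINB8: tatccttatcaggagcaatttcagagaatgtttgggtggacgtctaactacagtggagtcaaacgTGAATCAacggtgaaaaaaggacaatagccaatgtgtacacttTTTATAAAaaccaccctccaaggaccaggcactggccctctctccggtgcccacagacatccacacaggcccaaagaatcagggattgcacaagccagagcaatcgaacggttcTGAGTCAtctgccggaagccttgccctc
PLAUR: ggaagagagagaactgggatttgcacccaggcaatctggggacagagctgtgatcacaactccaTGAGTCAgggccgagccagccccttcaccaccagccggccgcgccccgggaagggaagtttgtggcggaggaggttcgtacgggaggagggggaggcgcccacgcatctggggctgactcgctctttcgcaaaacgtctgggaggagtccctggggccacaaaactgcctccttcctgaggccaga

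In SERPINB2 the AP-1 core began 102 bases before the start and the TATA core 30 bases before it. SERPINB8 held the AP-1 core at 185 and at 28 bases before the start, with the TATA core at 140 bases on the plus strand and an overlapping match on the minus strand at 142. In PLAUR the AP-1 core lay 186 bases before the start. TATAAA was present in 10.7% of windows of this length. A match is a string of letters and not a bound site, and the members with a match include both the largest increase (SERPINB2) and the smallest (PLAUR).

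PLAU, which encodes urokinase, was the most abundant member in 4-OHT. It lies on chromosome 10 (73909177 to 73917497, GRCh38, plus strand). Its level was 2119.9, 2133 and 2116 TPM in the 4-OHT libraries, against 377, 380.5 and 375 TPM in the DMSO libraries. The replicates were very close, with a coefficient of variation of 0.422% in 4-OHT and 0.787% in DMSO, and the groups did not overlap. The level was 5.63-fold higher in 4-OHT (log2 fold change 2.49, SE 0.0277, limma adjusted p = 2.36e-08). By mean level PLAU ranked 39th of all entries in 4-OHT and 390th in DMSO.

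The annotated gene C10orf55 runs on the opposite strand and overlaps PLAU over 7529 bases. It was read at 6.34, 5.07 and 5.82 TPM in 4-OHT, against 2.12, 1.98 and 2.63 TPM in DMSO (log2 fold change 1.06, SE 0.139, limma adjusted p = 0.000714). The strand setting of the quantification is not given in the sources used here, so reads of this overlapping pair cannot be told apart, but the C10orf55 level is small beside that of PLAU. The protein-coding neighbours on either side were not called. CAMK2G, a calcium-dependent kinase subunit, had a log2 fold change of -0.09 (limma adjusted p = 0.266, 0.02 under median-of-ratios scaling), and VCL, which encodes the adhesion protein vinculin, one of 0.05 (limma adjusted p = 0.556, -0.03 under quantile normalization).

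PLAT, which encodes tissue-type activator and lies on chromosome 8 (42175233 to 42207724, minus strand), rose as well. It was at 315, 312 and 310.2 TPM in 4-OHT, against 111, 104 and 102 TPM in DMSO. The 4-OHT libraries were nearly level with each other, and the groups did not overlap. The level was 2.96-fold higher (log2 fold change 1.56, SE 0.0441, limma adjusted p = 5.43e-07). Neither AP3M2 (-0.27, limma adjusted p = 0.111) nor IKBKB (-0.16, limma adjusted p = 0.211), the protein-coding genes on either side, was called. AP3M2 passed with the replicate number as a block (limma adjusted p = 0.0397) and without DMSO replicate 2 (limma adjusted p = 0.0393), and IKBKB without DMSO replicate 1 (limma adjusted p = 0.0259), each lower in 4-OHT.

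PLAUR, on chromosome 19 (43646095 to 43670547, minus strand), encodes the receptor that holds urokinase at the membrane. Its level was 148, 142 and 142 TPM in 4-OHT, against 101, 112 and 128 TPM in DMSO. The 4-OHT libraries were close together and the DMSO libraries spread more widely, with DMSO replicate 3 nearest to the 4-OHT level. PLAUR was 1.27-fold higher (log2 fold change 0.34, SE 0.0839, limma adjusted p = 0.0123). The call was lost with no filter on low values (limma adjusted p = 0.0614; 0.00224 to 0.0614 over the alternatives). Its neighbour CADM4, a cell adhesion gene, was at 4.34 ± 0.524 TPM in 4-OHT and 2.15 ± 0.687 TPM in DMSO (log2 fold change 0.78, limma adjusted p = 0.0125, and 0.0563 with no filter on low values).

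SERPINB2 encodes plasminogen activator inhibitor 2, which inhibits urokinase and is found both inside cells and secreted. The gene lies on chromosome 18 (63871692 to 63903890, plus strand). It was at 464, 459 and 487 TPM in 4-OHT, against 31.6, 35.0 and 17.5 TPM in DMSO. DMSO replicate 3 was well below the other DMSO libraries, while the 4-OHT libraries differed little. The level was 16.8-fold higher in 4-OHT (log2 fold change 4.08, SE 0.23, limma adjusted p = 1.01e-05), and the mean rank moved to 306th in 4-OHT, against 5339th in DMSO.

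SERPINB2 sits in a cluster of clade B serpins on chromosome 18. SERPINB10, on the same strand, overlaps it over 6717 bases in the annotation. It was read at 3.33, 2.40 and 4.00 TPM in 4-OHT, against 0.521, 0.25 and 0.941 TPM in DMSO (log2 fold change 1.44, SE 0.232, limma adjusted p = 0.00188). Reads from the shared stretch cannot be assigned from these files, so the SERPINB10 level is uncertain. SERPINB7, on the other side at a distance of 66315 bases, was at 80.9, 85.1 and 84.2 TPM in 4-OHT, against 82.6, 88.1 and 85.7 TPM in DMSO. Its groups overlapped and it was not called (log2 fold change -0.03, 95% interval -0.15 to 0.08, limma adjusted p = 0.574, 0.08 under median-of-ratios scaling).

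SERPINB8, further along the same cluster (63969925 to 64019779, plus strand), encodes an intracellular serpin known to inhibit furin-like proteases. It was at 50.1, 48.7 and 54.5 TPM in 4-OHT, against 28.4, 29.4 and 27.6 TPM in DMSO. The groups were well apart, at 1.79-fold (log2 fold change 0.82, SE 0.0631, limma adjusted p = 4.87e-05). HMSD, which overlaps SERPINB8 over 11850 bases on the same strand, was at 1.74 ± 0.698 TPM in 4-OHT and 2.97 ± 0.924 TPM in DMSO and was not called (limma adjusted p = 0.137).

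SERPINE2, which encodes protease nexin-1, a secreted inhibitor of thrombin, urokinase and plasmin, moved the other way. It lies on chromosome 2 (223975112 to 224039319, minus strand). Its level was 557, 800.5 and 551 TPM in 4-OHT, against 1034, 1015 and 1068 TPM in DMSO. In 4-OHT replicate 2 it stood well above the other 4-OHT libraries yet below every DMSO library. SERPINE2 was 1.63-fold lower in 4-OHT (log2 fold change -0.73, SE 0.137, limma adjusted p = 0.00384). Without 4-OHT replicate 2 the log2 fold change was -0.91 (limma adjusted p = 2.17e-05). It was the most abundant member in DMSO, at rank 127 of all entries, and ranked 219th in 4-OHT. The adjacent MRPL44, a mitochondrial ribosome gene, had overlapping groups and was not called (log2 fold change 0.15, limma adjusted p = 0.171), but passed under median-of-ratios scaling (0.27, limma adjusted p = 0.031) and without DMSO replicate 3 (0.24, limma adjusted p = 0.0199).

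SERPINI1 encodes neuroserpin, a secreted inhibitor of tissue-type activator known mainly from neurons, and was by far the least abundant member. It lies on chromosome 3 (167735243 to 167825568, plus strand). Its level was 3.12, 3.11 and 3.84 TPM in 4-OHT, against 1.38, 1.46 and 2.55 TPM in DMSO. DMSO replicate 3 stood closest to the 4-OHT libraries, and the groups did not overlap. The log2 fold change was 0.66 (SE 0.195, limma adjusted p = 0.0264). This call was lost when any of the libraries other than DMSO replicate 3 was left out (limma adjusted p = 0.0528 to 0.0828) and with no filter on low values (0.0982). PDCD10, whose product acts in vascular integrity, starts 303 bases away in the opposite direction and rose too, at 95.9, 94.2 and 88.3 TPM in 4-OHT, against 68.2, 64.6 and 74.0 TPM in DMSO (log2 fold change 0.43, SE 0.064, limma adjusted p = 0.00136). GOLIM4, a Golgi protein gene on the other side, also rose by 0.43 (limma adjusted p = 0.0013).

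**Figure D2:**
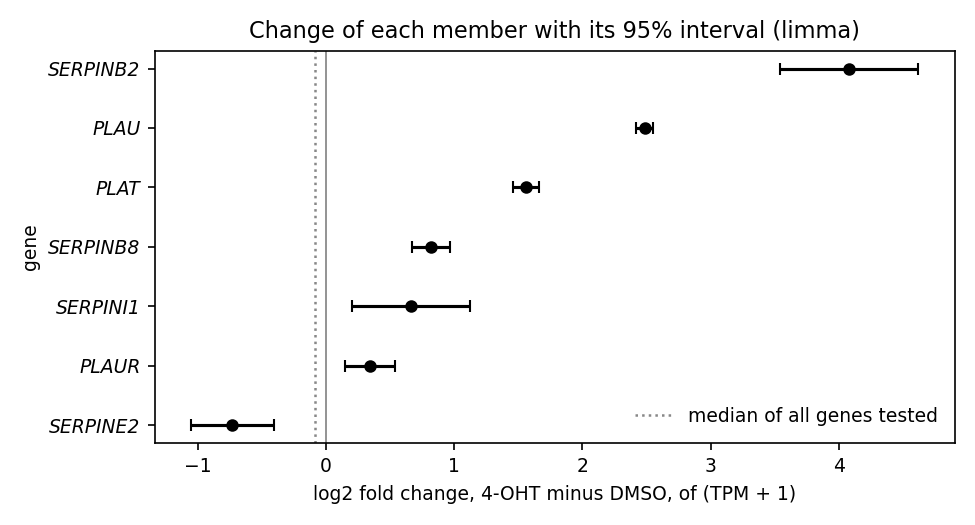
Log2 fold change of each gene, 4-OHT minus DMSO, of TPM + 1, with its 95% interval from limma (3 libraries per group). The dotted line is the median of all genes tested (-0.09). The intervals run from 3.54 to 4.62 for SERPINB2 and from -1.05 to -0.41 for SERPINE2, and those of PLAUR and SERPINI1 come closest to 0 among the genes that rose.

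The order of the levels differed between the groups. In 4-OHT it ran PLAU, SERPINE2, SERPINB2, PLAT, PLAUR, SERPINB8 and SERPINI1, and no neighbours in that order overlapped. In DMSO it ran SERPINE2, PLAU, PLAUR, PLAT, SERPINB8, SERPINB2 and SERPINI1. There PLAUR (101 to 128 TPM) and PLAT (102 to 111 TPM) overlapped, as did SERPINB8 (27.6 to 29.4 TPM) and SERPINB2 (17.5 to 35.0 TPM).

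Sums and ratios of the levels are given as a description. Ratios within a library do not depend on how libraries are scaled, while sums do. The activators PLAU and PLAT together reached 2435, 2445 and 2426 TPM in 4-OHT, against 488, 484 and 476 TPM in DMSO. The inhibitors SERPINE2 and SERPINB2 together reached 1021, 1259.6 and 1038 TPM in 4-OHT, against 1066, 1049.9 and 1086 TPM in DMSO. As deposited, the inhibitor sums of the groups overlapped, with the higher SERPINB2 and the lower SERPINE2 adding up to 1106 ± 133 TPM in 4-OHT and 1067 ± 18.1 TPM in DMSO (SD, n = 3 each). Under median-of-ratios scaling these sums were 1061, 1290 and 1066 in 4-OHT, against 1012, 991 and 1029.9 in DMSO, and did not overlap. Activator transcripts per inhibitor transcript of this pair were 2.39, 1.94 and 2.34 in 4-OHT, against 0.457, 0.461 and 0.439 in DMSO. Other inhibitors of the activators are not part of these sums.

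The mixture within each class changed too. PLAU stood to PLAT as 6.72, 6.84 and 6.82 in 4-OHT, against 3.40, 3.68 and 3.68 in DMSO. The ratio of PLAU to the transcript of its receptor, PLAUR, was 14.3, 15.0 and 15.0 in 4-OHT, against 3.72, 3.41 and 2.92 in DMSO. The ratio of SERPINB2 to SERPINE2 was 0.833, 0.574 and 0.885 in 4-OHT, against 0.0305, 0.0344 and 0.0163 in DMSO, so SERPINE2 remained the more abundant of both inhibitors in every library. Of the summed level of the 7 genes, PLAU made up 54.7% to 58.0% in 4-OHT and 21.8% to 22.7% in DMSO. SERPINE2 made up 15.0% to 20.5% in 4-OHT and 60.5% to 62.1% in DMSO.

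**Figure D3:**
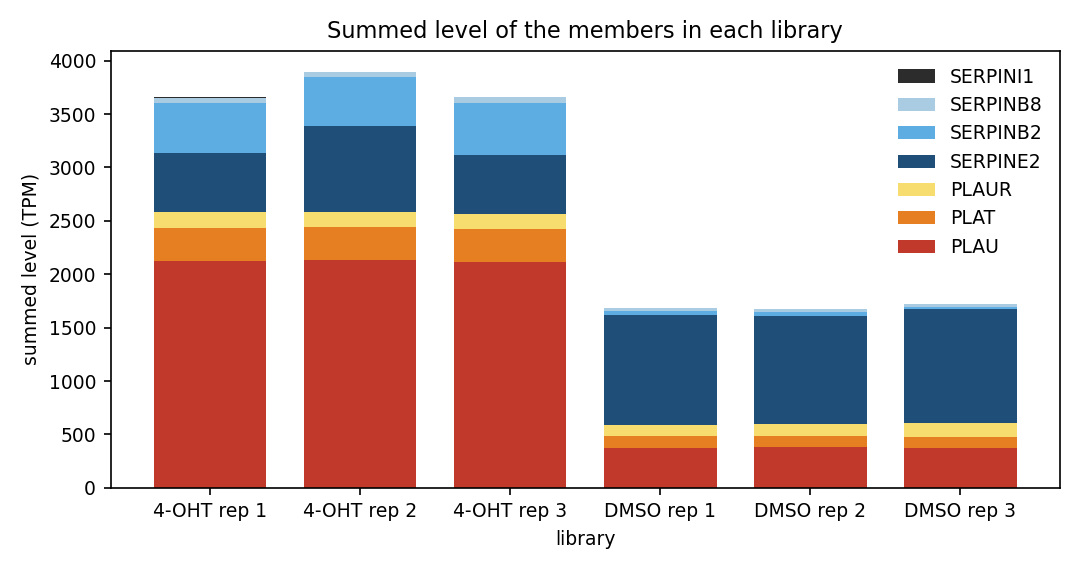
Level of the 7 genes stacked in each library, in TPM, with the 4-OHT libraries on the left and the DMSO libraries on the right. The total was 3740.1 ± 137 TPM in 4-OHT and 1694 ± 23.6 TPM in DMSO (SD, n = 3 each), with PLAU (red) the widest block in every 4-OHT library and SERPINE2 (dark blue) in every DMSO library.

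Genes with the most similar profile were found by the Euclidean distance between centred log2(TPM + 1) values over the 6 libraries, among 10648 genes of at least 5 TPM (10649 for SERPINI1). Because the libraries form 2 groups, likeness mostly reflects the size of the group difference. Nearest to PLAU were FKBP1A, which encodes a prolyl isomerase (distance 0.143), and SEMA7A, a membrane-anchored semaphorin (0.148). PLAT was closest to SPHK1, a sphingosine kinase (0.108), and TSPAN9, a tetraspanin (0.109). SERPINB2 had no close match, with PWWP3B (0.601) and CSF3, the granulocyte colony-stimulating factor (0.691), at the smallest distances. SERPINE2 was nearest to GOLGA8B (0.138) and XRCC4, a DNA end-joining factor (0.141). In both, as in SERPINE2, 4-OHT replicate 2 was the highest 4-OHT library, and choosing genes by likeness to SERPINE2 favours such a match. GOLGA8B was at 8.42, 11.6 and 8.87 TPM in 4-OHT, against 16.4 to 17.5 TPM in DMSO. XRCC4 was at 6.29, 9.78 and 6.14 TPM in 4-OHT, against 11.3 to 12.5 TPM in DMSO. The others were DCTN6 (0.078) and RNF5 (0.106) for PLAUR, HIPK2 (0.0885) and ERN1 (0.102) for SERPINB8, and GTF2B (0.248) and SRRD (0.249) for SERPINI1.

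Other genes of the system were counted from 6 lists, which overlap in part. Of 56 distinct list genes tested, 25 rose and 22 fell. Beside these and the list counts below, 19.8% of all genes tested rose and 29.9% fell, with a median log2 fold change of -0.09. Plasminogen itself, PLG, is made by the liver and was at most 0.04 TPM in any library. Of 4 genes tested that encode its docking proteins, 3 fell and 1 rose (median -0.31). Protein at the cell surface was not measured. ENO1, a glycolytic enzyme that also binds plasminogen, was at 1381 ± 12.5 TPM in 4-OHT and 1796 ± 14.5 TPM in DMSO (log2 fold change -0.38, limma adjusted p = 3.21e-05). ANXA2 (-0.34) and S100A10 (-0.29), which form the complex that binds plasminogen and tissue-type activator, fell as well. The one that rose, PLGRKT, a plasminogen receptor named here after its values were seen, was at 38.1 ± 1.98 TPM in 4-OHT and 31.9 ± 3.01 TPM in DMSO (0.25, limma adjusted p = 0.04), and the call was lost in 7 of the 14 alternatives.

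Among receptor partners and clearance receptors, 4 of 10 tested genes rose and 1 fell (median 0.09). The share called was near the 49.6% of all genes tested. The integrin subunits ITGB3 and ITGB5, each a part of a different receptor for vitronectin, rose most. ITGB3 was at 47.9, 54.0 and 55.3 TPM in 4-OHT, against 16.8, 19.3 and 16.3 TPM in DMSO (log2 fold change 1.53, limma adjusted p = 1.14e-05). ITGB5 was at 265 ± 5.2 TPM in 4-OHT and 107 ± 4.21 TPM in DMSO (1.30, limma adjusted p = 1.08e-06). IGF2R, a receptor known to bind the urokinase receptor and plasminogen, rose by 0.45 (limma adjusted p = 0.0101), a call lost with no filter on low values (limma adjusted p = 0.0566). The gene that fell was LRP1, an endocytic receptor that clears activator and inhibitor complexes, named after its values were seen (-0.26, limma adjusted p = 0.012). The number that fell was 0 under median-of-ratios scaling and 2 under quantile normalization or without DMSO replicate 1.

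Pericellular proteases that activate urokinase or act beside it rose in 5 of 8 tested genes and fell in 3 (median 0.47). The number that fell was 2 in several alternatives, among them no filter on low values, median-of-ratios scaling and the replicate block. HTRA1, a secreted serine protease, was at 529 ± 9.39 TPM in 4-OHT and 203 ± 10 TPM in DMSO (log2 fold change 1.38). The membrane protease FAP fell by 1.01 and PRSS12, which encodes neurotrypsin, by 1.57 on the log2 scale. In the list of other fibrinolysis inhibitors and coagulation starters 5 of 9 rose and 3 fell (median 0.29). F3, which encodes tissue factor, the starter of coagulation, was at 453, 459 and 468 TPM in 4-OHT, against 125, 142 and 134 TPM in DMSO (log2 fold change 1.78, limma adjusted p = 5.77e-07). F2RL1, a receptor that proteases switch on by cutting it, rose by 1.87. SERPING1, the C1 inhibitor, fell by 1.70, to 11.2, 10.9 and 17.5 TPM in 4-OHT, against 46.8, 42.7 and 42.7 TPM in DMSO.

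Substrates of plasmin and the activators rose in 8 of 17 tested genes and fell in 7 (median 0.57). MMP1 and MMP10, matrix metalloproteinases made as zymogens, rose by 1.98 and 1.91, MMP10 to 30.5 ± 4.21 TPM in 4-OHT, against 7.31 ± 0.451 TPM in DMSO. PDGFD, a growth factor that urokinase can activate, was at 0.713, 0.48 and 0.766 TPM in 4-OHT, against 5.23, 5.67 and 5.09 TPM in DMSO (log2 fold change -1.94, limma adjusted p = 3.86e-05). Among other serpins 3 of 10 tested genes rose and 6 fell (median -0.84), and of those that rose SERPINB10, described above, shares annotated sequence with SERPINB2. Most of the 31 listed serpins stayed under a mean of 1 TPM and were not tested.

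**Figure D4:**
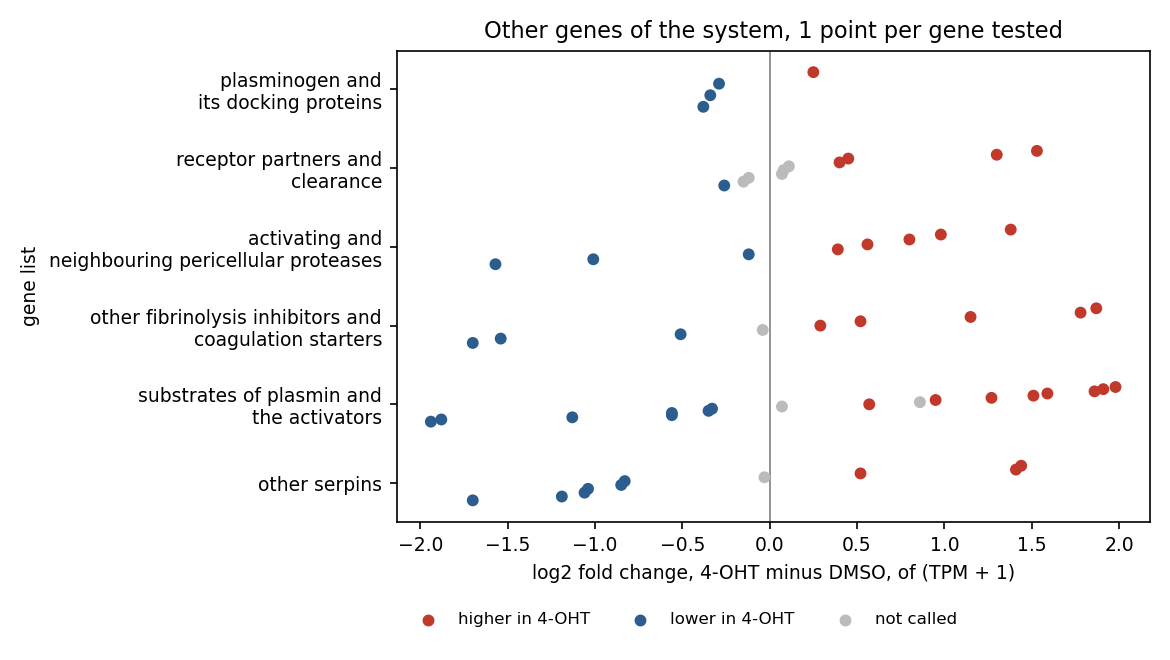
Log2 fold change, 4-OHT minus DMSO, of TPM + 1 for each tested gene of 6 lists (1 point per gene, 3 libraries per group). Red points rose, blue points fell and grey points were not called at an adjusted p of 0.05 (limma). Docking proteins of plasminogen lie within -0.38 to 0.25, while the list of plasmin and activator substrates spans -1.94 to 1.98.

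Markers of cell types were read beside these results. All 10 fibroblast markers were at 1 TPM or more in at least 1 library, and their summed level was 19101 to 19509 TPM in 4-OHT and 20227 to 20826 TPM in DMSO. VIM, which encodes vimentin, makes up most of that sum, and the sum hides changes of single markers: 7 of the 10 fell, among them DCN (-1.04), FAP (-1.01) and COL3A1 (-0.91), and 3 rose, PDGFRB (0.71), THY1 (0.42) and VIM (0.15). Endothelial markers, relevant since endothelium makes tissue-type activator, summed to 2.16 to 3.82 TPM in 4-OHT and 2.61 to 2.70 TPM in DMSO. Of these, 3 of 6 were under 1 TPM in all libraries. TEK fell, at 0.366 ± 0.106 TPM in 4-OHT and 1.97 ± 0.149 TPM in DMSO (limma adjusted p = 0.00129). The other 5 were not tested, and of them TIE1, PECAM1 and KDR were higher in 4-OHT without overlap. TIE1 was at 1.39 ± 0.668 TPM in 4-OHT and 0.147 ± 0.029 TPM in DMSO. The part of endothelial markers in the PLAT result was not tested. Of 8 keratinocyte and epithelial markers 6 were under 1 TPM in all libraries, KRT1 was at 0, and KRT10 made up most of the sum (32.8 to 43.2 TPM in 4-OHT and 37.5 to 52.5 TPM in DMSO). Monocytes also make SERPINB2 and PLAUR. Monocyte and other immune markers summed to 5.78 to 11.1 TPM in 4-OHT and 3.02 to 4.91 TPM in DMSO, with 4 of 7 under 1 TPM in all libraries and PTPRC at 0.272 to 2.36 TPM in 4-OHT and 0.453 to 1.43 TPM in DMSO. CD14, the most abundant of them, rose like SERPINB2 and PLAUR, at 5.24 ± 1.7 TPM in 4-OHT and 2.14 ± 0.822 TPM in DMSO (limma adjusted p = 0.0187). The other 6 immune markers were not tested, and the groups overlapped in each of them. The part of these markers in the SERPINB2 and PLAUR results was not tested. Neuronal markers, read because of SERPINI1, summed to 10.5 to 11.2 TPM in 4-OHT and 9.86 to 11.3 TPM in DMSO. That sum hides opposite changes. SNAP25, a synaptic vesicle fusion gene, rose, at 9.73 ± 0.437 TPM in 4-OHT and 2.05 ± 0.257 TPM in DMSO (limma adjusted p = 1.83e-05). STMN2, a neuronal stathmin, fell, at 0.623 ± 0.309 TPM in 4-OHT and 7.05 ± 0.639 TPM in DMSO (limma adjusted p = 5.25e-05). The other 3 were too low to be tested, and the part of neuronal markers in the SERPINI1 result was not tested. Melanocyte markers summed to 0.647 to 1.01 TPM in 4-OHT and 1.40 to 2.73 TPM in DMSO. In bulk samples, fewer cells of a kind and less RNA per cell cannot be told apart.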

How the data were processed

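Bulk RNA-seq of 6 libraries was analysed from a single table that the authors deposited, with 1 row per gene symbol and values in TPM. According to the submitters' processing notes, the tools were Trim Galore 0.6.6 for trimming, STAR and StringTie, on build GRCh38. Neither gene annotation nor strand setting is given in the sources used here. Library input was 1 µg total RNA, per the labels. The column of DMSO replicate 3 holds 1 value slightly below 0 (MTND5P11), which was set to 0. Groups were read from the sample titles.

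All genes averaging 1 TPM or more were fitted on the log2(TPM + 1) scale, without covariates, by limma 3.58.1 (R 4.3.3, empirical Bayes moderation with a variance trend). The fit was also run on simulated data with independent noise, which cannot check the scaling or whether replicates are technical. TPM carry no read depth, and no counting interval or detection limit is given. Positions come from GENCODE 29 and start regions from RefSeq. The members and lists were chosen with earlier results of these data known. Of 95 listed genes 94 were matched. Named genes are the 7 members, the 3 largest called changes of each list (1 of those among other serpins is not reported here), overlapping genes and nearest protein-coding neighbours, and the 2 genes nearest in profile. Neighbours under 1 TPM are left out, and some list genes are counted but not reported here by name. Alternatives changed the pseudocount, filter, scaling, variance trend, replicate block and libraries. Python 3.11.15, pandas 2.3.3 and matplotlib 3.10.9 were used.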

Additional observations from a re-analysis of the deposited data

How the results depend on the processing

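The calls of members, named genes and list counts were recomputed under up to 14 alternatives, and genes that a minimum of 5 TPM removed under 13 or fewer. Ratios, orders of levels, likeness and list medians were not recomputed, and sums were recomputed under median-of-ratios scaling alone. Of the members, PLAU, PLAT, SERPINE2, SERPINB2 and SERPINB8 kept direction and call in all of these, with log2 fold changes of 2.48 to 2.61 for PLAU and limma adjusted p up to 0.0346 for SERPINE2. PLAUR lost its call with no filter on low values (0.34, limma adjusted p = 0.0614). SERPINI1 lost it there (0.66, limma adjusted p = 0.0982) and in 5 of the 6 fits that left out a library (0.55 to 0.84 over those 6), and the cause was not tested; at a minimum of 5 TPM it was not fitted. The number of members that rose and fell, and the 25 and 22 list genes that did, stayed within 1.5 times. Of the counts of single lists, other serpins that rose came to 1 at a minimum of 5 TPM, and the docking proteins and receptor partners moved as given above. The remaining list counts varied, but stayed within 1.5 times. The uncalled neighbours that changed sign were CAMK2G (0.02) and SERPINB7 (0.08) under median-of-ratios scaling, and VCL (-0.03) under quantile normalization. The labels do not say whether replicate numbers pair the samples. Deviations from the group mean correlated at 0.0555, 0.0327 and 0.0237 between same-numbered libraries over 11055 genes. Between libraries of unlike number the correlations were -0.087 to 0.0526. With 3 libraries per group these values cannot settle whether the samples are paired. With the replicate number as a block, 6 members rose and 1 fell, as without it, with 2819 and 4246 genes called in all against 3018 and 4561. Unknown depth limits what can be said of SERPINI1 and other genes of a few TPM.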
